A study of Rattus norvegicus with 4 samples.

Results

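The probes described here are the 3 rat probes named rno-miR-143, rno-miR-145 and rno-miR-145*, out of 688 rat miRNA probe names on either version of the array. They were chosen by name, with earlier results of these data known. The study profiled microRNAs (miRNAs), short RNAs that silence messenger RNAs by pairing with them, in hearts from male rats of the Wistar strain taken 2 or 14 days after surgery. In the myocardial infarction (MI) groups the left anterior descending coronary artery was ligated, and in the sham groups the chest and pericardium were opened. Each of the 4 groups, MI and sham at day 2 and MI and sham at day 14, was 1 array of RNA pooled from 3 rats, so no difference has a replicate check and no test was possible. The errors given are taken over the 4 replicate spots of a probe on one array, and they do not cover variation among rats or among arrays. Day 2 and day 14 used different array versions and different amounts of RNA, so levels are compared only within a day.

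As background, miR-143 and miR-145 are cut from neighbouring hairpins of one long transcript, the host RNA Carmn. They are the best-known miRNAs of vascular smooth muscle, where they favour the contractile over the proliferative state, and in the heart they are found mainly in the walls of the coronary vessels, with some signal in fibroblasts and other stromal cells. Both strands of a hairpin can be loaded into the silencing complex. The more abundant strand carries the plain name in the older naming used by these arrays, and its partner carries an asterisk.

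In RefSeq's rat assembly GRCr8, both hairpins lie on the minus strand of chromosome 18, within the long non-coding RNA gene Carmn at chr18:57368191-57389112, and 1278 bases separate them. Mir143 spans chr18:57371349-57371453 and Mir145 spans chr18:57369983-57370070. The 4 mature strands all had an entry in the RefSeq table. In the newer naming, miR-143 is miR-143-3p and miR-143* is miR-143-5p, while miR-145 is miR-145-5p and miR-145* is miR-145-3p. The mature sequences are shown because the arrays read 3 or 4 products of the same transcript, and their seeds (bases 2 to 8, in capitals), which pair with target messages, all differ.
rno-miR-143: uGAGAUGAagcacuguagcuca
rno-miR-143*: gGUGCAGUgcugcaucucugg
rno-miR-145: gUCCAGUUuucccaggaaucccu
rno-miR-145*: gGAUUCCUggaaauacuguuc
Each of these seeds occurred in 1 of the 724 rat mature miRNAs of the table, so none of the 4 strands shared its seed with another listed rat miRNA. The hairpins follow, with the strand from each arm in capitals. The named strand of Mir143 comes from the second arm and that of Mir145 from the first.
Mir143: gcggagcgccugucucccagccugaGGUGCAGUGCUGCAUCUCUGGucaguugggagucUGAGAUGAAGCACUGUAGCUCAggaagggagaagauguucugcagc
Mir145: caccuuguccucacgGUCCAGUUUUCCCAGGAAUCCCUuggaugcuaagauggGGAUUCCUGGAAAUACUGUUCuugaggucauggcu

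There were 348 rat probes on the day 2 arrays and 677 on the day 14 arrays, and 147 and 157 of them were detected without saturation in both the MI and the sham pool. A probe counted as detected when at least 50% of its spots stood over 2 background SDs above the local background. At day 2 the median local background of the 4 sets of replicate spots was 118 to 169 intensity units on the MI array and 279.5 to 516 on the sham array. The fourth set of the sham array was dim: in the median its spots deviated by -1.15 on the log2 scale from the median of their probe's spots. Day 2 values of miR-145 and of several other probes are therefore also given over the other 3 sets. The image of the day 2 sham scan carries the prefix for mouse in the file header although the labels say rat. Both array versions held rno-miR-143 and rno-miR-145 on probes whose names list the human, mouse and rat miRNA together. A probe named for rat miR-145* or miR-143* was present at day 14 alone.

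At day 2 miR-143 could not be set against its control, because its spots reached the scanner's limit. All 4 MI spots read 65535, the highest value the scanner gives, with 81% to 87% of their pixels saturated. Among the sham spots, 3 also read 65535, with 89% or 90% of pixels saturated, and the spot in the dim set read 11157. No fold can be taken from these spots under any processing, and miR-143 was 1 of 14 rat probes with no fold for this reason at that day. The authors' deposited table gives a log2 difference of 0.71 for miR-143, MI minus sham, which rests on the same saturated spots.

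miR-145 was detected on all spots of both day 2 arrays and was not saturated. Its MI spots read 4733.5, 5457, 7740 and 5270 intensity units before background correction, and its sham spots read 8390.5, 9369, 9851.5 and 3646. The lowest sham spot was the one in the dim set, and the other 3 sham spots stood above all 4 MI spots. After quantile normalization, which gives both arrays of a day the same distribution of spot values, miR-145 averaged 12.64 ± 0.32 in MI and 12.69 ± 0.69 in sham (log2 intensity, SD, n = 4 spots each). The difference, MI minus sham, was -0.06 (SE 0.38), smaller than its own error over spots. Over the 3 spot sets without the dim one it was -0.16 (SE 0.23). In RNA from whole tissue, fewer cells of a type and less RNA per cell cannot be told apart.

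Before normalization the median rat probe at day 2 was lower in MI than in sham, at -0.46 over 4 spot sets and -0.74 over 3. Without normalization and over 3 sets, miR-145 was at -0.69 (SE 0.23), which lay 0.05 above that 3-set median. In the normalized values, miR-145 ranked 85th from the highest of 147 such probes, whose median was 0.09, with quartiles of -0.27 and 0.40. Of 187 rat probes with a fold at day 2, 8 were at least 2-fold higher in MI (4.28%) and 2 at least 2-fold lower (1.07%), together 5.35%, and miR-145 was not among them.

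**Figure D1:**
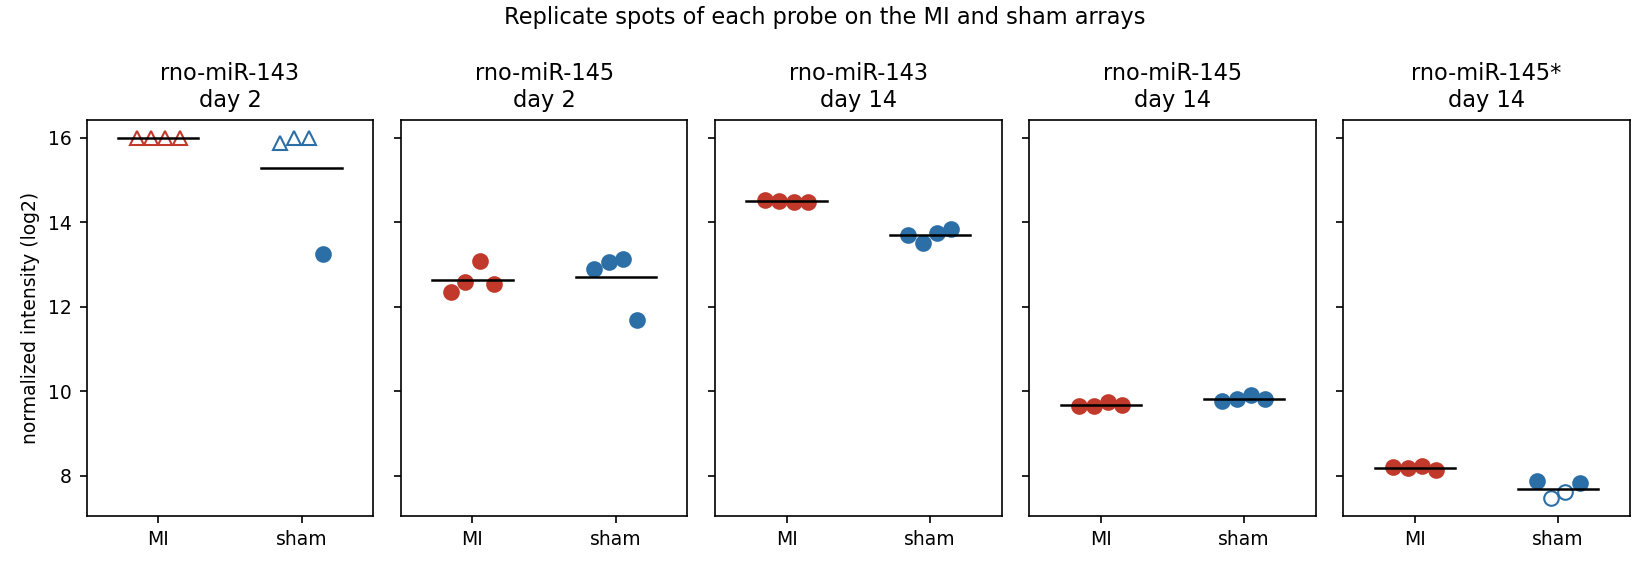
Normalized log2 intensity of the 4 replicate spots of each probe, with MI left of sham in each panel and the black bar at the mean. Open triangles are spots at the scanner's limit and open circles are spots not above background. At day 2 miR-143 was at the limit on 4 MI and 3 sham spots. In the normalized day 14 values MI was higher for miR-143 and miR-145* and lower for miR-145. The signs of miR-145 and miR-145* depended on the scaling.

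The scanner files also hold a scan of the same spots in the red channel, for which the labels name no dyed sample, beside the green channel that reads the dye. Signal there was low and none of these spots was saturated, so it gave a second reading of miR-143 at day 2. Net of local background, the miR-143 spots of the 3 clear sets averaged 167 units in MI and 333 in sham, against a 95th percentile of 4.32 and 5.13 over empty spots of the MI and sham arrays. The log2 difference was -0.995, not normalized. The same difference had a median of -0.74 over the 29 rat probes with at least 10 units on both arrays, so that miR-143 stood 0.26 below the median probe, 12th from the lowest.

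Among the 12 of these probes with no spot at the limit, the differences in the red and the green channel had a Pearson correlation of 0.69 and a Spearman correlation of 0.45. The points share their arrays and spots, and the median gap between the channels was 0.40. That gap includes the offset between the channels, whose medians over the 12 probes were -0.83 in red and -0.59 in green. It is therefore not an error for a position against a median. miR-143 was 0.26 below the median probe in the red channel, and miR-145 was 0.05 above the median probe in the green one. The 2 values come from different channels and different sets of probes, so the gap between the hairpins was not computed at that day.

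**Figure D2:**
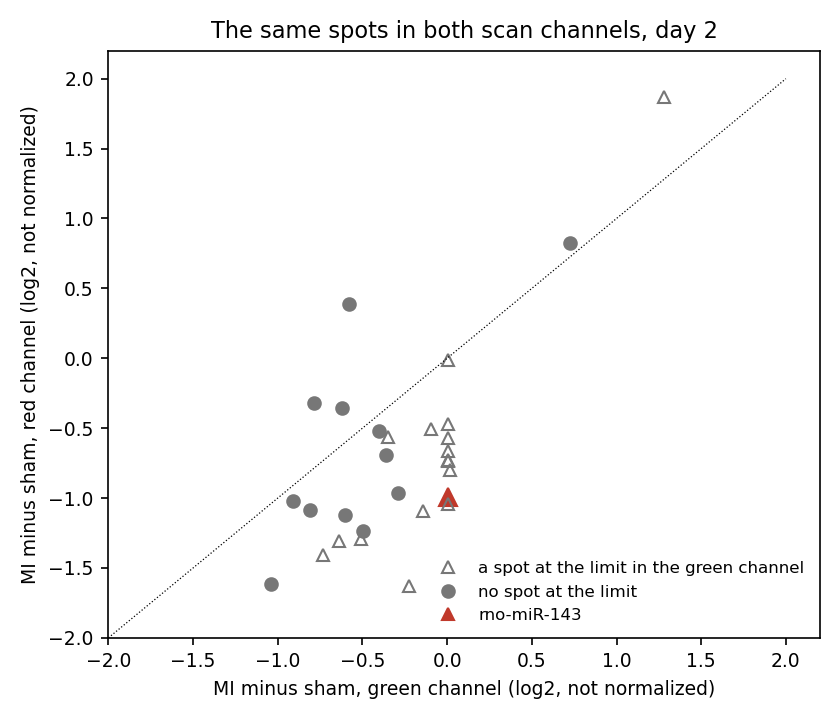
MI minus sham at day 2 for 29 rat probes in the 2 scan channels, without normalization and over 3 spot sets; each point is a probe and the dotted line marks equality. Triangles are probes with a spot at the limit in the green channel, where miR-143 (the filled triangle) reads 0.00 while its red channel difference is -0.995.

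The asterisk strands at day 2 could be read only on probes named for other species. The probe named for human and mouse miR-145* was detected on all spots and averaged 10.18 ± 0.41 in MI and 10.79 ± 0.25 in sham (SD, n = 4 spots each), a difference of -0.61 (SE 0.24), or -0.56 (SE 0.31) over 3 spot sets. At day 14 one probe carries the human, mouse and rat names of miR-145* together. The probe named for human miR-143* was detected on 4 of 4 MI spots but 1 of 4 sham spots, so that it has no measured fold. The difference of its means, 0.15 (SE 0.37), rested on the dim sham set and turned to -0.13 (SE 0.09) over the other 3 sets.

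At day 14 the main strand of miR-143 stood higher in the MI pool, while the sign for that of miR-145 depended on the scaling. The miR-143 spots read 27126.5, 26347, 26286 and 25910 units in MI, and 11070, 9680, 11423 and 12598 units in sham, none of them saturated. Every MI spot was above every sham spot, by more than the spread within either array. After normalization miR-143 averaged 14.51 ± 0.03 in MI and 13.70 ± 0.14 in sham (log2 intensity, SD, n = 4 spots each), a difference of 0.81 (SE 0.07), or 1.75-fold. It ranked 25th from the highest of 157 rat probes detected on both arrays.

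The miR-145 spots read 910, 919, 965.5 and 933 units in MI, and 721.5, 757, 803 and 751 units in sham. The MI spots were the brighter ones before normalization, and the fainter ones after it. The normalized means were 9.68 ± 0.05 in MI and 9.83 ± 0.06 in sham (log2 intensity, SD, n = 4 spots each). The difference was -0.15 (SE 0.04), a rank of 117 among the 157 probes. It turned to 0.27 without normalization and to 0.15 when the arrays were set equal at their spike-in probes, so its sign depended on the scaling.

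miR-145*, from the other arm of the miR-145 hairpin, was near the limit of detection. Its spots read 314, 283.5, 285 and 265 units in MI, all detected, and 215.5, 148.5, 180.5 and 211 units in sham, of which 2 were detected. The MI spots were all above the sham spots. The normalized difference was 0.50 (SE 0.09), with 8.19 ± 0.04 in MI and 7.70 ± 0.18 in sham (SD, n = 4 spots each), and a rank of 48 among the 157. It was -0.19 when each array was centred on the median of its detected rat probes. The partner strand of miR-143, miR-143*, was not detected, with 0 of 4 MI spots and 1 of 4 sham spots above background, and has no fold.

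Because some of the scalings moved all rat probes by the same amount, each strand was also set against the median probe. That median stood at 0.24 in the normalized day 14 values and between -0.19 and 0.46 under the other scalings. miR-143 was 0.57 above that median, and it remained above it in 12 of 12 other ways of processing, by 0.28 to 0.78. miR-145 was 0.39 below the median and stayed below it in 12 of 12, at -0.65 to -0.19 from it. miR-145* was 0.26 above it, and between 0.00 and 0.69 above it in the 10 that gave a value on both arrays. The order of the 2 main strands, with miR-143 above miR-145, was thus the same in all 12. No normalization, centring and the spike-in shift differ only by a constant per array. Their positions against the median are therefore the same by construction and are not separate checks. Under these scalings miR-145* stood 0.00 above the median, against 0.26 in the quantile normalized values.

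None of the 3 members reached 2-fold at day 14 in the normalized values. In the same values, 27 of 230 rat probes with a fold were at least 2-fold higher in MI (11.7%) and 8 at least 2-fold lower (3.48%), together 15.2%. miR-143 passed 2-fold without normalization (1.24) and with the spike-in shift (1.12). In the red channel its spots averaged 51.6 units in MI and 13.9 in sham, where the lowest spot read 7.94. The log2 difference was 1.89, not normalized, beside 1.25 for the same spots in the green channel, also not normalized. It was the highest of the 7 rat probes with enough signal in the red channel, whose median was 0.74.

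**Figure D3:**
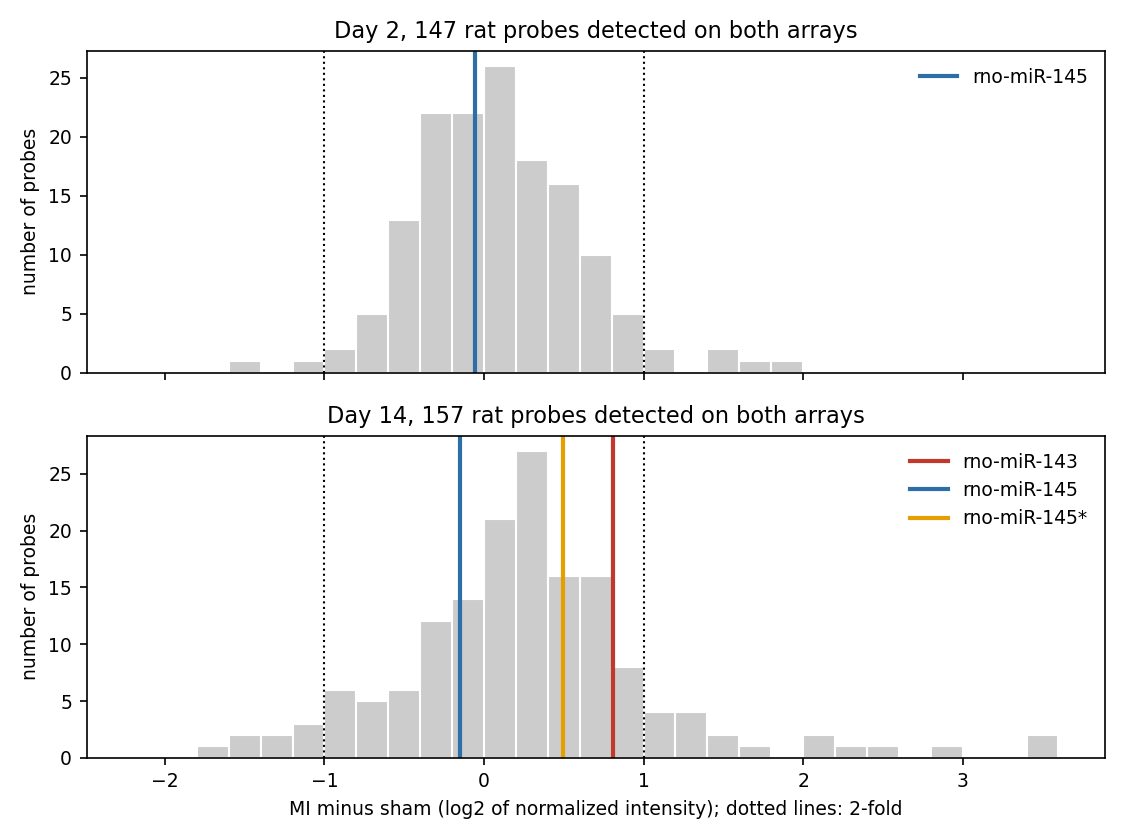
Number of rat probes by their MI minus sham difference (log2 of normalized intensity) at day 2 and day 14, with vertical lines at the members that have a value and dotted lines at 2-fold. At day 2 miR-145 lies at -0.06, and at day 14 miR-145, miR-145* and miR-143 lie at -0.15, 0.50 and 0.81.

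**Figure D4:**
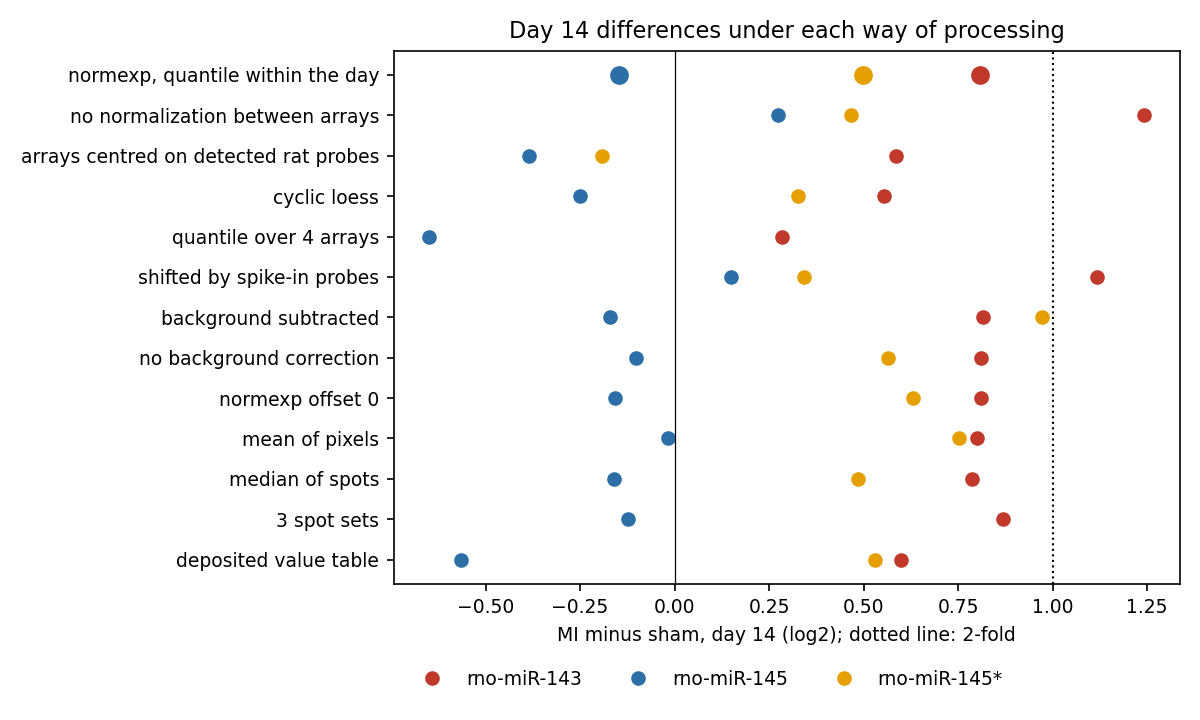
MI minus sham at day 14 for the members (log2) under the normalized values, in the top row, and 12 other ways of processing; the dotted line marks 2-fold. miR-143 lies to the right of miR-145 in every row, miR-145 crosses 0 in 2 rows, and miR-145* has no value with quantile normalization over 4 arrays and only a bound with 3 spot sets.

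The 2 main strands come from one transcript, and their day 14 differences were 0.96 apart (SE 0.08), with miR-143 the higher. The gap was between 0.80 and 1.16 in the 12 other ways of processing. Other neighbouring hairpins that share a transcript give a scale for this gap: over the 9 such pairs with both strands detected on both arrays, the gap had a median of 0.43 and ran from 0.15 to 0.73. miR-99b and let-7e were the widest of them, at 0.99 and 0.26, a gap of 0.73. miR-199a-5p and miR-214, which fibroblasts carry, were at 3.43 and 2.94, a gap of 0.49. miR-451 and miR-144, the erythroid pair, were at 0.01 and 0.21.

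The miR-143 and miR-145 gap was wider than those 9 in the normalized values and in 11 of the 12 other ways of processing. Among these ways, no normalization, centring and the spike-in shift give the same gaps by construction. With plain background subtraction it was 0.99, against 1.08 for miR-99b and let-7e. Some of the 9 pairs share a hairpin and some of their strands, such as miR-24 and miR-199a, come from more than one gene, so the pairs are not independent. A further 5 pairs, in which a strand was detected in MI alone, have no gap because such a value is a bound. Among them were miR-193 at 2.14 beside miR-365 at a bound of 0.73, and miR-221 and miR-222 at bounds of 1.21 and 2.28, so that a gap wider than that of miR-143 and miR-145 cannot be told for these. At day 2 the 12 other pairs with values had a median gap of 0.42 and ran from 0.08 to 0.97, and the larger errors of the sham array limit them.

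Within the miR-145 hairpin, the plain strand was 0.65 lower than its partner in the day 14 difference (-0.65, SE 0.10). The size of that gap depended on the processing: it was -0.19 without normalization and -1.14 with plain background subtraction, the ends of the range over the 10 other ways that gave it. Over 13 other hairpins with both strands detected, the gap between strands had a median of 0.45, and 3 of the 13 were wider than that of miR-145. The widest was miR-21 and its partner strand, at 3.45 and 0.53, a gap of 2.92. The next was miR-199a-5p and miR-199a-3p, at 3.43 and 2.10. In these values the strands of miR-145 were thus inside the range of the other hairpins.

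**Figure D5:**
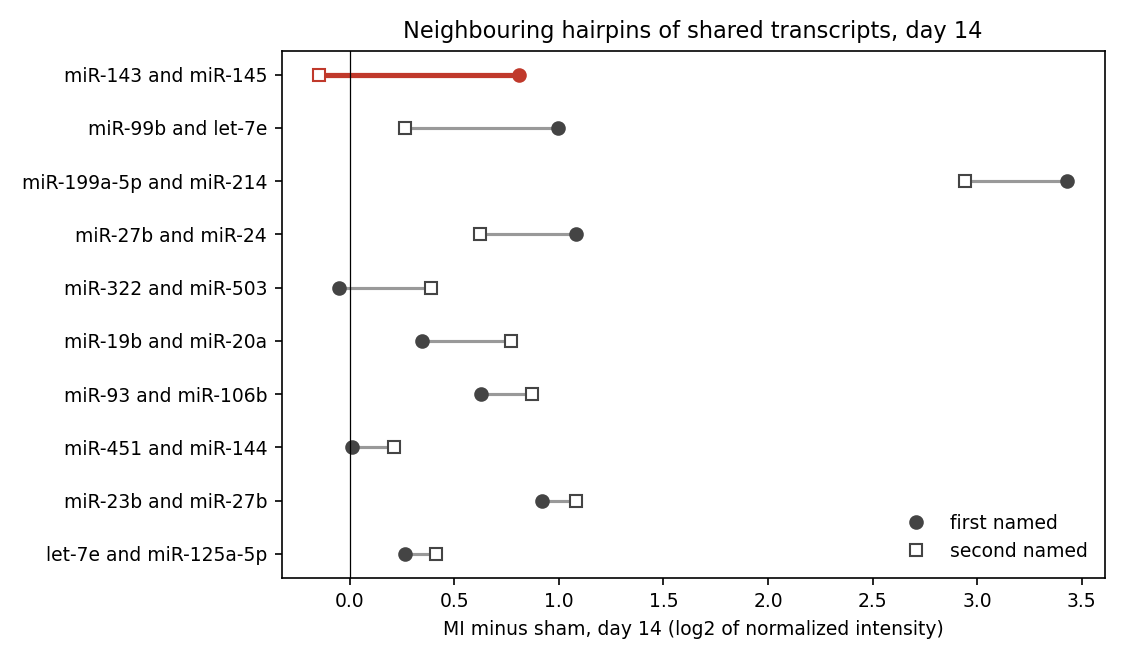
MI minus sham at day 14 (log2 of normalized intensity) for neighbouring hairpins on shared transcripts, with a filled circle for the first named and an open square for the second, ordered by the width of the gap. The miR-143 and miR-145 pair (red) spans 0.96, and the 9 other pairs span 0.15 to 0.73.

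Across the 2 days, miR-145 was the one member with a difference at each. It was -0.06 at day 2 and -0.15 at day 14, a change of -0.09 (SE 0.38), against a median change of 0.21 over 91 rat probes detected on all 4 arrays. Among the 90 others, the 3 with the closest pair of differences were miR-322, at -0.11 and -0.05, miR-300-5p, at -0.20 and -0.21, and miR-872*, at 0.01 and 0.10. Their distances to miR-145, the root of the summed squares over the 2 days, were 0.11, 0.16 and 0.26, within the error of miR-145 at day 2.

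Marker miRNAs of other cell types differed between the pools beside the members, and their part in the results was not tested. At day 14 all 3 fibroblast markers were at least 2-fold higher in MI, at 2.10 for miR-199a-3p to 3.43 for miR-199a-5p. So were all 3 listed leukocyte markers, which are miR-223 and the strands of miR-142, at 1.23 for miR-142-3p to 1.72 for miR-223. Of these, miR-142-5p, at 1.48, is a bound because it was detected in MI alone. Beside them, 11.7% of all rat probes with a fold were at least 2-fold higher in MI and 3.48% at least 2-fold lower. Of the 5 listed heart muscle markers, 4 were at least 2-fold lower in MI, at -1.16 for miR-1 to -1.42 for miR-133a, and miR-499 was at -0.66. These directions were the same in 12 of 12 other ways of processing, although none of the 5 heart muscle markers passed 2-fold without normalization or with the spike-in shift. Of the endothelial strands, miR-126 lay at -0.29 and its partner miR-126* at -0.39. The sign of miR-126 changed without normalization, where it was 0.05. In the same values neither smooth muscle strand was past 2-fold, at 0.81 and -0.15. All of these markers were detected on the MI array.

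At day 2, of the same lists, 2 of 3 leukocyte markers were at least 2-fold higher in MI, beside 4.28% of all rat probes with a fold. They were miR-223 at 1.99 (2.17 over 3 spot sets) and miR-142-3p at 1.74 (1.18 over 3 sets and 0.89 with the median of the spots). The third, miR-142-5p, was at 0.83, and at 1.02 over 3 sets. None of the 3 fibroblast markers passed 2-fold, at -0.25 for miR-199a-3p to 0.28 for miR-199a-5p. Over 3 sets miR-199a-3p was at -0.09, miR-199a-5p at -0.16 and miR-214 at 0.18. The sign of miR-199a-5p and miR-214 changed in 5 of 12 other ways of processing. The heart muscle miRNAs miR-1, miR-133a and miR-208 were saturated, as miR-143 was. The other 2 heart muscle markers were within 2-fold. miR-133b was at 0.33, and at -0.11 over 3 sets, and miR-499 was at 0.51, and at -0.28 over 3 sets.

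miRNAs reported to favour either state of vascular smooth muscle, the setting in which miR-143 and miR-145 are best known, were read from lists chosen with earlier results of these data known. The lists do not hold every miRNA reported for either state, so their counts do not weigh one state against the other. Of 7 reported to favour proliferation, 4 were at least 2-fold higher in MI at day 14 and none at least 2-fold lower, beside 11.7% and 3.48% of all rat probes with a fold. The list median of 1.21 was itself a bound, that of miR-221. The median of 0.24 over rat probes detected on both arrays leaves bounds out, so the medians are not alike. The 4 higher ones were miR-21 at 3.45, miR-31 at least 4.08, miR-222 at least 2.28 and miR-221 at least 1.21. The last 3 are bounds because they were detected in MI alone. miR-221 was at 0.54 to 2.44 in the 12 other ways of processing, and it was past 2-fold in 10 of them. miR-146a, miR-24 and miR-26a were within 2-fold, at 0.75, 0.62 and 0.32. Of 3 reported to favour the contractile state, 2 were at least 2-fold lower in MI, miR-133a at -1.42 and miR-1 at -1.16, and miR-204 was at -0.10. miR-1 and miR-133a are also abundant in heart muscle, and most of the 7 are also present in leukocytes, fibroblasts or endothelium, so that their cell of origin cannot be told from whole tissue. miR-143 and miR-145, which favour the contractile state, were at 0.81 and -0.15, and miR-145 turned above 0 under 2 scalings.

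At day 2, 3 of the 7 proliferation-linked miRNAs were at least 2-fold higher in MI: miR-21, at 1.44 as a bound with saturated spots, miR-222 at 1.42 and miR-31 at 1.21 as a bound, beside 4.28% of all rat probes with a fold. Without normalization miR-222 was at 0.94 and miR-31 at 0.31, both under 2-fold, and over 3 spot sets miR-222 was at 1.10. miR-221 was at 0.76, and at 0.17 without normalization. miR-146a was at 0.68, but at 0.10 over 3 sets. miR-26a, saturated in sham, had only a bound, of -0.06, and miR-24 was saturated. Of the contractile list, miR-1 and miR-133a were saturated and miR-204 was not detected, so no value stands beside those of miR-145 at that day.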

How the data were processed

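Per the labels, total heart RNA (1 µg for the day 2 arrays, 500 ng for those of day 14) received Hy3 and was hybridized on miRCURY LNA arrays. Sample titles gave the groups. The treatment text reads sham, day 2 for all samples, in conflict with the titles of the other groups. Scanner files as deposited give each spot's intensity and its local background (Mapix 4.5.0) and percent of saturated pixels, per the file headers. The deposited value table holds log2 values, processing not given in the sources used here. Its columns rank probes as the scanner values do (Spearman 0.989 to 1.00), with slopes of 1.15 to 1.32 and medians of 6.36 at day 2 and 4.70 at day 14. Its background correction and centring are unknown. It was an alternative.

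Foreground medians were corrected with limma 3.58.1 in R 4.3.3 (normexp, offset 50), quantile normalized within a day over non-control spots, and averaged over 4 spots as log2. A miRNA was called at a 2-fold difference. A probe detected on 1 array has a bound, against the higher of its own dim mean and the lowest detected mean. Probes with 50% of spots at 65535 are saturated. Named are the members, the listed miRNAs, clustered partners and the 3 nearest probes; members and lists were chosen with earlier results of these data known. Array and group cannot be told apart, and the number of arrays, 4, limits the precision. The calculation was tested on simulated data.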

Additional observations from a re-analysis of the deposited data

Results flagged for a closer look

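Signal in the red channel, for which no dyed sample is named, was above that of empty spots. On the day 14 MI array the miR-143 spots averaged 51.6 units there, against a 95th percentile of 4.95 over the empty spots of that array, and on the sham array they averaged 13.9 units, against 4.92. The probe named for human miR-143*, outside the rat probes, was detected on the day 2 MI array and not on the sham array. Its measured difference was 0.15 (SE 0.37) and turned to -0.13 without the dim sham spot set, so it has no settled direction.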

How the results depend on the processing

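miR-145 at day 2, at -0.06, ran from -0.69 to 0.14 over 12 alternatives and 2 more chosen after seeing the data, moves smaller than the SD of the difference over spots (0.76); the lowest, without normalization and over 3 spot sets, had an SE of 0.23. For miR-143, miR-145 and miR-145* at day 14, main values were 0.81, -0.15 and 0.50. Without normalization miR-143 and miR-145 were 1.24 and 0.27, with centred arrays 0.58, -0.38 and miR-145* -0.19, with cyclic loess 0.55 and -0.25, with quantile over 4 arrays 0.28 and -0.65, with the spike-in shift 1.12 and 0.15, and by the authors' deposited table miR-143 was 0.60 and miR-145 -0.56. The mean of pixels gave miR-145 -0.017 and miR-145* 0.75, and background subtraction gave miR-145* 0.97. The red channel, chosen after seeing the data and not normalized, gave miR-143 1.89. The gap between miR-143 and miR-145 was 0.96, and 1.16 in the authors' deposited table. The cause of these moves was not tested. miR-143 and the gap at day 2 (saturated spots) and rat miR-145* at day 2 (no such probe) gave no value under any alternative, and miR-145* gave none with quantile over 4 arrays. Calls past 2-fold numbered 10 at day 2, and 27 without normalization, 6 with quantile over 4 arrays, 56 with background subtraction, 16 with offset 0 and 59 in the deposited table. They numbered 35 at day 14, and 80 with background subtraction and 73 in the deposited table. The split of higher and lower calls was 8 and 2 at day 2, against 4 and 23 without normalization, 5 and 8 centred, 12 and 1 with cyclic loess and 5 and 10 with the spike-in shift. At day 14 it was 27 and 8, against 42 and 1, 17 and 30, 21 and 13, and 36 and 4 under the same 4 settings, and 17 and 12 with quantile over 4 arrays. No paired analysis was possible because each group is 1 array, and no replicate could be left out. Signal over background limits miR-145*, and saturation limits miR-143 at day 2.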
